A study of Danio rerio with 6 samples.

Results

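Kinesins are motors that walk along microtubules or take them apart, and tubulins are the subunits from which microtubules are built. The genes described here are the 66 of 32057 gene IDs in the count table whose zebrafish symbol begins with kif and a digit or c, or with tuba, tubb or tubg and a digit. They hold 47 kinesin genes and 19 tubulin genes. By role they were divided into 12 mitotic kinesins, 21 transport kinesins, 14 other kinesins, 6 tubulins listed for their use in neurons (the *tuba1*, *tubb2b* and *tubb5* genes) and 13 other tubulins. The division follows lists of genes by known role, with every gene not listed placed among the others. It was made with earlier results of these data known. The table of gene names gives 12 of the 66 IDs a symbol that they share with another ID, and such IDs are printed with the symbol and the ID.

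The RNA came from regrown tail fins of larval zebrafish, taken at 24 hpa (hours post amputation) and read by SMART-seq, a method for small amounts of RNA. The control group was of genotype WT and received the solvent DMSO, and the other group received 1 µM Rapamycin, a blocker of mTOR complex 1, and is labelled mtor inhibition. Both groups were amputated at 3 dpf (days post fertilization), treatment ran from 2 dpf, and each group has 3 libraries. The methods speak of 50 fins and of 3 biological replicates in each group, without saying how the fins were shared out, so each library is a pool whose p-values measure only the spread between such pools. The question is how the genes of the spindle and of cell transport differ in fins that regrow while mTOR is blocked. A whole fin holds several cell types, so that fewer cells of a type and less RNA per cell cannot be told apart in any value below. No unamputated fin is among the libraries.

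In a dividing cell, mitotic kinesins push the spindle poles apart, move chromosomes and close the furrow between the daughter cells, and most of their genes are read in the G2 and M phases. In cells that do not divide, transport kinesins carry vesicles, mitochondria and cilium parts towards the plus ends of microtubules, with a few motors that walk the other way. Tubulin is a pair of an alpha and a beta chain, each encoded by many similar genes, while gamma-tubulin (*tubg1*) starts new microtubules at the centrosome. Regrowth of the larval fin depends on the division of epidermal and mesenchymal cells, which need mitotic kinesins.

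Each library held 49055607 to 54162044 counts. Epidermis markers summed to 43474 to 66048 CPM (counts scaled to a common library total by TMM, a correction for composition). Fin mesenchyme markers summed to 89024 to 153812 CPM. Of the listed symbols 10 of 11 and 10 of 14 were found, and all of their 10 and 11 IDs were tested. The labelled tissue thus carried the markers that were found. Neuron markers summed to 11.5 to 15.7 CPM in the control and 5.23 to 7.53 CPM in the rapamycin libraries, and the markers *nefma* and *syt1b* had no count in any library. Control replicate 1 stood apart from the other controls. Over 13355 genes, the deviation of a gene from its own mean followed its length on the chromosome with Spearman's rho 0.21 for control replicate 1. It was -0.34 for control replicate 2, -0.28 for replicate 3 and between 0.16 and 0.30 for the rapamycin libraries. These genes share the libraries, and rho is given as a description.

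Of the 66 genes, 57 passed the filter on low counts and 9 did not. Those 9 were *kif1ab*, *kif28*, *kif5ab*, *kif25*, *kif26bb*, *tubb1*, *tubb4bl*, KIF3C (ENSDARG00000079500) and TUBB2B (ENSDARG00000039522). *kif28* and *kif5ab* had no count in any library. *kif26bb* had 8, 17 and 5 counts in the control libraries and 0 in each rapamycin library. Its control level was 10.1 times that of a floor of 3 counts over the rapamycin group. This ratio leaves out the spread between libraries, and the gene was not tested. At a similar depth *kif25* had 0, 16 and 0 counts in the control and 19, 0 and 0 in the rapamycin libraries. In the comparison of the groups by edgeR over 19778 genes, 3 of the 57 tested genes fell (*kif23*, *kif11* and *tuba8l5*) and KIF26B rose, at an adjusted p under 0.05. Of all tested genes 3.27% fell and 1.97% rose, so that 3 and 1 of 57 are close to that background. DESeq2 called 8 of these genes lower and 4 higher, against 7.78% and 5.06% of all tested genes. limma-voom called 3 lower and 3 higher, against 3.43% and 2.87%.

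**Figure D1:**
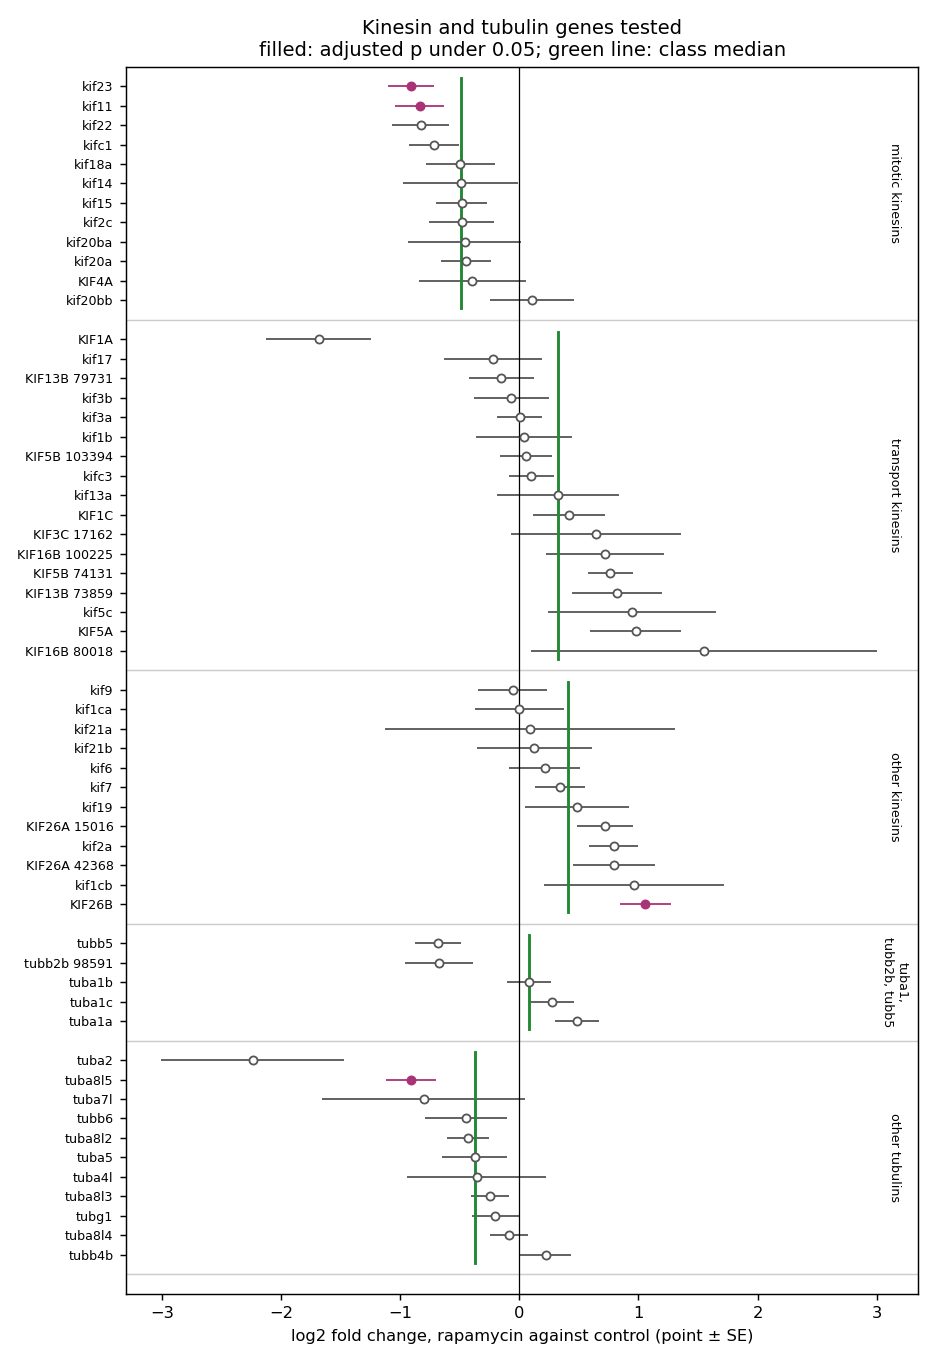
Log2 fold change of each tested kinesin and tubulin gene between the rapamycin and the control group, with the SE as the bar and the class median as a green line. Filled points are the 4 genes with an adjusted p under 0.05 from edgeR, and a number after a symbol is the end of the Ensembl ID. Of 12 mitotic kinesins 11 lie below 0, and of 12 other kinesins 10 lie above 0.

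Mitotic kinesins had the lowest median of the 5 classes, except without control replicate 1, where they were at -0.52 and the other tubulins at -0.62, and without rapamycin replicate 6 (-0.33 and -0.34). All 12 were tested, *kif23* and *kif11* fell, against 3.27% of all tested genes, and the other 10 did not pass the test. Their median log2 fold change was -0.49, while that of all tested genes was 0.00, and 11 of the 12 lay below 0. In 7 of the 12 every rapamycin library lay below every control library, against 15.9% of all tested genes. By an unadjusted p under 0.05, 5 were lower and 0 higher in edgeR, against 13.3% and 10.1% of all tested genes.

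*kif23* encodes the motor of centralspindlin, the complex that bundles microtubules between the separating chromosomes for cytokinesis. It had 20.2, 27.3 and 24.3 CPM in control replicates 1 to 3 and 12.8, 12.7 and 12.5 CPM in rapamycin replicates 4 to 6. The rapamycin libraries nearly coincided and all lay below the lowest control. The log2 fold change was -0.91 with a standard error (SE) of 0.19 (edgeR adjusted p = 0.0300).

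*kif11* encodes the motor with heads at both ends that slides the poles of the spindle apart. It had 58.6, 49.7 and 53.6 CPM in the control and 38.5, 27.1 and 25.2 CPM in the rapamycin libraries. The groups did not overlap, and rapamycin replicate 4 was nearest to the controls. On the log2 scale the difference was -0.83 (SE 0.20, edgeR adjusted p = 0.0488).

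*kif22*, a motor on chromosome arms, and *kifc1*, which walks to the minus end and gathers the spindle poles, were separated between the groups without passing the edgeR test. *kif22* had 32.9, 50.8 and 63.7 CPM in the control and 29.4, 25.6 and 27.9 CPM in the rapamycin libraries, with control replicate 1 close to the rapamycin libraries. Its log2 fold change came to -0.83 (SE 0.24, edgeR adjusted p = 0.0794, DESeq2 0.0175). *kifc1* had 26.4, 33.2 and 32.1 CPM in the control and 22.3, 18.7 and 14.8 CPM in the rapamycin libraries. Its log2 fold change came to -0.72 (SE 0.21, edgeR adjusted p = 0.0811, DESeq2 0.0228).

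The remaining mitotic kinesins differed less. *kif15*, which can stand in for *kif11* at the spindle, had 21.5, 17.0 and 18.6 CPM in the control and 16.5, 12.6 and 11.8 CPM in the rapamycin libraries (log2 fold change -0.48, SE 0.21, edgeR adjusted p = 0.207). *kif20a*, which brings the chromosomal passenger complex to the midzone, had 21.2, 21.9 and 19.0 CPM against 17.8, 15.9 and 11.9 CPM (log2 fold change -0.44, SE 0.21, edgeR adjusted p = 0.240). In both genes every rapamycin library lay below every control, by a margin that did not pass the test.

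The spread between libraries was wide for several of the others. *kif2c*, which takes microtubules apart at the kinetochore, had 21.1, 25.0 and 31.0 CPM in the control and 25.0, 17.6 and 12.4 CPM in the rapamycin libraries, so that the groups overlapped. *kif14*, which acts in cytokinesis, had 7.10, 3.82 and 3.74 CPM against 3.83, 5.21 and 1.39 CPM. The paralogs *kif20ba* and *kif20bb* had log2 fold changes of -0.46 (SE 0.47) and 0.11 (SE 0.35), with *kif20ba* at 0.06 without control replicate 1, and neither passed (edgeR adjusted p = 0.593 and 0.878). *kif20bb*, at 5.54, 3.31 and 6.47 CPM in the control and 6.74, 6.17 and 3.59 CPM in the rapamycin libraries, was the only mitotic kinesin above 0, and its sign turned without control replicate 2 (-0.13), without rapamycin replicate 4 (-0.06) and with the trend on gene length removed (-0.02). *kif18a* (-0.49), which damps the movement of chromosomes, and KIF4A (-0.39), a motor of chromosomes and the midzone that was at 0.04 without control replicate 1, did not pass either.

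The sum over the 12 mitotic kinesins was 235, 245 and 265 CPM in the control and 187, 151 and 130 CPM in the rapamycin libraries, and it is given with no test. The proliferation markers moved with it. Their sum was 1201 to 1440 CPM in the control and 705 to 949 CPM in the rapamycin libraries. Of 14 tested IDs 5 fell, against 3.27% of all tested genes. Among them were *cdk1* (log2 fold change -1.38), *ccnb1* (-1.51), *ccna2* (-1.03) and RRM2 (ENSDARG00000078069, -1.18). The part of fewer dividing cells in the kinesin values was not tested.

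The proteins that work with these motors were listed apart from them. That list also holds *cenpe* (log2 fold change -0.76), itself a kinesin gene, whose symbol does not begin with kif. Of 14 tested spindle partners 6 fell, against 3.27% of all tested genes, and 8 did not pass. Their median log2 fold change was -0.81, with 12 below 0 and 2 above. *cdca8*, of the passenger complex on chromosomes, was at -1.64 on the log2 scale (edgeR adjusted p = 0.0105), its kinase *aurkb* had -1.09 (adjusted p = 0.0453) and *aurka*, the kinase of the spindle poles, had -1.53 (adjusted p = 0.0225). *plk1*, a kinase that acts throughout mitosis, had -1.14 (adjusted p = 0.0262), all from edgeR. The gamma-tubulin ring complex, which starts microtubules, held 10 tested genes with a median of -0.14. Of these edgeR called 0, gave 2 as lower at an unadjusted p under 0.05 (13.3% of all tested genes), and DESeq2 and limma-voom called 0. *tubg1* itself had 28.1, 38.4 and 39.6 CPM in the control and 34.7, 30.2 and 27.3 CPM in the rapamycin libraries (log2 fold change -0.20, SE 0.20, edgeR adjusted p = 0.579).

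**Figure D2:**
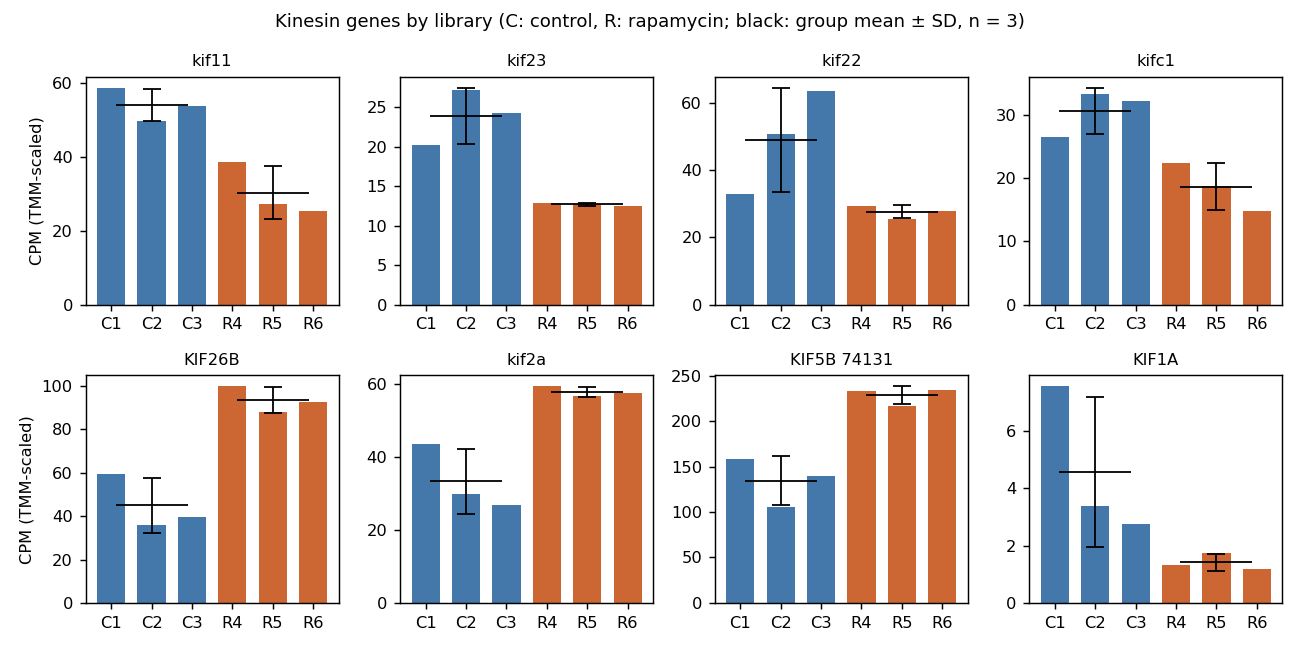
CPM of 8 kinesin genes in each control library (C1 to C3, blue) and each rapamycin library (R4 to R6, orange), with the group mean and SD in black, and the number after KIF5B for the end of its Ensembl ID. *kif23* lies at 12.5 to 12.8 CPM in the rapamycin libraries, while KIF26B rises to 88.1 to 99.9 CPM.

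No transport kinesin passed the edgeR test. Of 21 genes 17 were tested, and edgeR called 0 of them. By an unadjusted p under 0.05, 1 was lower and 2 were higher in edgeR, DESeq2 called 1 lower (KIF1A) and 1 higher (KIF5B), and limma-voom 0 lower and 1 higher. These counts of 17 are at, near or below the shares of all genes given above. Their median log2 fold change was 0.32, and 13 of the 17 lay above 0. In 3 of them every rapamycin library lay above every control library, against 14.8% of all tested genes, and in 1 every rapamycin library lay below. The median was 0.69 without control replicate 1 and 0.02 without control replicate 2.

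The 2 IDs of KIF5B, the heavy chain of the conventional kinesin that carries organelles in most cells, had unlike values. The difference between them was not tested. KIF5B (ENSDARG00000074131) had 158, 105 and 140 CPM in the control and 233, 217 and 235 CPM in the rapamycin libraries, with no overlap. Its log2 fold change came to 0.76 (SE 0.19), and it lay just outside the threshold (edgeR adjusted p = 0.0505, DESeq2 0.00469, limma-voom 0.0355). KIF5B (ENSDARG00000103394) had 22.2, 17.7 and 29.5 CPM against 24.6, 24.2 and 23.2 CPM, with a log2 fold change 0.06 (SE 0.22). How reads shared between such similar copies were counted is not given in the sources used here.

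KIF1A, a motor of synaptic vesicle precursors in neurons, went the other way from most of its class. It had 7.56, 3.36 and 2.74 CPM in the control and 1.33, 1.75 and 1.18 CPM in the rapamycin libraries, and control replicate 1 was more than any other library. The log2 fold change came to -1.68 (SE 0.44, edgeR adjusted p = 0.0598, DESeq2 0.00656). Without control replicate 1 it was -1.11 (edgeR adjusted p = 0.0404), and without control replicate 3 it was -1.94 and also passed. Of 5 tested neuron markers 1, ISL1 (log2 fold change -1.81, edgeR adjusted p = 0.0449), was lower, against 3.27% of all tested genes. The median of the 5 was -0.83. The part of neurons in the value of KIF1A was not tested.

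Motors at the other end of the order were sparse or variable. KIF5A, a neuronal form of the conventional kinesin, had 1.34, 1.94 and 1.22 CPM against 4.02, 2.73 and 2.13 CPM, with no overlap (log2 fold change 0.98, SE 0.38, edgeR adjusted p = 0.164). KIF13B (ENSDARG00000073859) had 7.07, 3.44 and 2.69 CPM against 9.41, 6.96 and 7.04 CPM (log2 fold change 0.82, edgeR adjusted p = 0.226), with control replicate 1 inside the range of the rapamycin group. KIF16B, a motor of early endosomes, had log2 fold changes of 1.55 (SE 1.45, ENSDARG00000080018) and 0.72 (SE 0.50, ENSDARG00000100225). The former rests on 0 to 19 counts per library, and in the latter every rapamycin library lay above every control library.

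The motors of intraflagellar transport and other carriers did not pass the test. *kif3a*, of the heterotrimeric kinesin that builds cilia, had 29.0, 34.1 and 42.5 CPM in the control and 35.2, 34.1 and 36.4 CPM in the rapamycin libraries (log2 fold change 0.00, SE 0.19). Its partner *kif3b* had a log2 fold change -0.07 (SE 0.31). *kifc3*, which walks to the minus end, had 37.6, 26.5 and 30.0 CPM against 33.8, 33.8 and 33.5 CPM (log2 fold change 0.10, SE 0.19). *kif1b*, a carrier of mitochondria and synaptic vesicle precursors, ranged from 5.05 to 18.0 CPM among the controls alone, wider than the 9.56 to 12.7 CPM of the rapamycin libraries (log2 fold change 0.04, SE 0.40). Without control replicate 1 its log2 fold change was 0.65. KIF1C had 9.10, 6.41 and 4.19 CPM against 8.34, 9.25 and 8.82 CPM (log2 fold change 0.42, SE 0.30, and 0.72 without control replicate 1).

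The partners of transport kinesins that were tested had no call in edgeR as well. Of the listed symbols, 8 of 20 for cargo adaptors and 15 of 22 for dynein and dynactin were found among the gene symbols. The partners not found are not covered. Of 6 tested cargo adaptors, which link kinesins to their loads, edgeR called 0, with 0 at an unadjusted p under 0.05, and DESeq2 and limma-voom called 0, with a median log2 fold change of 0.08. Of 15 tested genes of cytoplasmic dynein and dynactin, the motor of minus-end transport, edgeR called 0, gave 2 as lower at an unadjusted p under 0.05, and DESeq2 called 2 lower and limma-voom 0 (median -0.04). Of 14 tested genes of intraflagellar transport edgeR called 0, gave 1 as lower and 2 as higher at an unadjusted p under 0.05, and DESeq2 and limma-voom called 0 (median -0.14). Of 10 tested markers of motile cilia edgeR called 0, gave 1 as lower and 1 as higher at an unadjusted p under 0.05, and DESeq2 called 1 higher and limma-voom 0 (median 0.00). Of all tested genes, 13.3% were lower and 10.1% higher at an unadjusted p under 0.05 in edgeR. DESeq2 called 7.78% of all tested genes lower and 5.06% higher.

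The other kinesins had the highest median. Of 14 genes 12 were tested and 10 of those lay above 0, with a median log2 fold change of 0.41. KIF26B rose, against 1.97% of all tested genes, and 11 did not pass. In 4 of the 12 every rapamycin library lay above every control library, against 14.8% of all tested genes. This class also holds *kif1ca* (log2 fold change -0.002, SE 0.37) and *kif1cb* (0.96, SE 0.76), which the list of transport motors did not name. It holds *kif2a* as well, which acts in spindles too and was not listed as mitotic.

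KIF26B and KIF26A belong to a family of kinesins that bind microtubules without walking on them. In mouse and human cells KIF26B is tied to cell adhesion and to noncanonical Wnt signalling. KIF26B (ENSDARG00000013343) had 59.3, 35.8 and 39.7 CPM in the control and 99.9, 88.1 and 92.7 CPM in the rapamycin libraries. All rapamycin libraries were well above control replicate 1, the highest control. On the log2 scale the difference was 1.06 (SE 0.21, edgeR adjusted p = 0.0262), the highest of the 12.

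KIF26A (ENSDARG00000015016) had 149, 87.6 and 83.3 CPM against 170, 173 and 184 CPM, a log2 fold change 0.72 (SE 0.23, edgeR adjusted p = 0.108, DESeq2 0.0388). KIF26A (ENSDARG00000042368) had 2.65, 1.69 and 1.74 CPM against 2.70, 4.0 and 3.87 CPM, a log2 fold change 0.79 (SE 0.34, edgeR adjusted p = 0.202). In both, control replicate 1 lay nearer to the rapamycin libraries than the other controls did. All 3 tested genes of this family were thus higher in every rapamycin library, against 14.8% of all tested genes. In KIF26A (ENSDARG00000042368) this rests on 2.70 CPM in rapamycin replicate 4 against 2.65 CPM in control replicate 1. Of the 3 genes 1 passed the test, while *kif26bb* had no count in the rapamycin libraries.

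*kif2a*, which takes microtubules apart from their ends in axons and spindles, had 43.6, 29.7 and 27.0 CPM in the control and 59.4, 56.8 and 57.5 CPM in the rapamycin libraries. The log2 fold change came to 0.79 (SE 0.21, edgeR adjusted p = 0.0605, DESeq2 0.0108, limma-voom 0.0424). Its close relative *kif2c*, of the mitotic class, had a log2 fold change of -0.48. The difference between these 2 genes was not tested.

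No kinesin of cilia passed the test. *kif7*, which passes the Hedgehog signal at the tip of the cilium, had 17.0, 12.1 and 14.4 CPM against 15.9, 20.3 and 18.9 CPM (log2 fold change 0.34, SE 0.21, edgeR adjusted p = 0.361). *kif9*, of motile cilia, had 3.62, 3.25 and 4.28 CPM against 3.74, 4.0 and 3.00 CPM (log2 fold change -0.05, SE 0.29). *kif6* and *kif19* had log2 fold changes of 0.21 and 0.48. The groups overlapped in all 4.

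**Figure D3:**
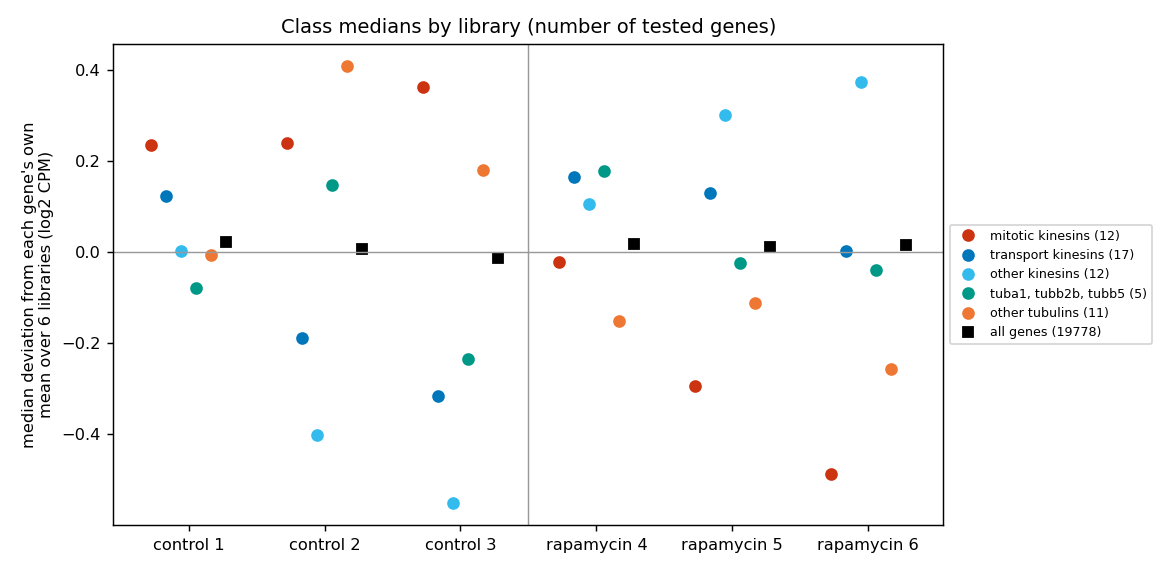
Median over the tested genes of each class of the deviation from the gene's own mean, in log2 CPM, for each of the 6 libraries. Mitotic kinesins lie at 0.23 to 0.36 in the control libraries and at -0.49 to -0.02 in the rapamycin libraries, while the other kinesins lie at -0.55 to 0.00 and at 0.11 to 0.37.

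Set against each other by library, the mitotic and the other kinesins parted in opposite directions. Mitotic kinesins had a median deviation of 0.23, 0.24 and 0.36 in the control and of -0.02, -0.29 and -0.49 in the rapamycin libraries, so that all controls lay above all rapamycin libraries. The other kinesins had 0.00, -0.40 and -0.55 against 0.11, 0.30 and 0.37, the reverse order. Transport kinesins had 0.12, -0.19 and -0.32 against 0.16, 0.13 and 0.00, with control replicate 1 inside the range of the rapamycin group. The medians of all genes stayed between -0.01 and 0.02. These values are medians over different genes and carry no test of the difference between classes. Over the 26 kinesins with a known length, the log2 fold change followed gene length with Spearman's rho 0.58, and over 15 tubulins with -0.625. The median length was 27.3 kb for 11 mitotic kinesins and 62.4 kb for 8 other kinesins. The part of gene length in the contrast of these classes was not tested.

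The *tuba1*, *tubb2b* and *tubb5* genes were mixed. They were listed for their use in vertebrate neurons, and which cells of these fins held their RNA was not tested. Each of the 5 tested genes was above 15.7 CPM, the highest sum of the neuron markers, in every library, and tubb2b (ENSDARG00000098591) stood at 602 to 1424 CPM. Only 11 of 23 listed neuron symbols were found, and levels of different genes do not tell which cells held the RNA. Of 6 genes 5 were tested, and edgeR called 0 of them. At an unadjusted p under 0.05, 2 were lower and 1 higher in edgeR, against 13.3% and 10.1% of all tested genes. DESeq2 called 1 lower (*tubb5*), against 7.78% of all tested genes, and limma-voom 0. The median log2 fold change was 0.08, and it was -0.06 without control replicate 3.

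tubb2b (ENSDARG00000098591) had 619, 1171 and 1424 CPM in the control and 763, 649 and 602 CPM in the rapamycin libraries. Control replicate 1 lay within the rapamycin group and the other controls well above it. The log2 fold change came to -0.67 (SE 0.29, edgeR adjusted p = 0.195), and without control replicate 1 it was -0.96 (edgeR adjusted p = 0.00171). *tubb5*, a beta-tubulin gene of the nervous system and other tissues, had 38.2, 53.1 and 47.0 CPM against 32.0, 29.7 and 24.6 CPM, with no overlap. Its log2 fold change came to -0.68 (SE 0.19, edgeR adjusted p = 0.0758, DESeq2 0.0195).

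The alpha-tubulin genes *tuba1c*, *tuba1a* and *tuba1b* follow one another on chromosome 23 in the RefSeq annotation of GRCz12tu. All 3 lay above 0. *tuba1a* had 57.9, 56.2 and 42.4 CPM in the control and 83.4, 66.1 and 69.3 CPM in the rapamycin libraries, with no overlap (log2 fold change 0.48, SE 0.19, edgeR adjusted p = 0.159). *tuba1c* had 27.2, 32.9 and 26.9 CPM against 40.2, 31.2 and 33.9 CPM (log2 fold change 0.27, SE 0.19, edgeR adjusted p = 0.407). *tuba1b*, whose sign turned without control replicate 3 (-0.06), had 53.5, 56.5 and 39.9 CPM against 57.8, 51.0 and 49.7 CPM (log2 fold change 0.08, SE 0.19, edgeR adjusted p = 0.825). With the trend on gene length removed, *tuba1a* had a log2 fold change of 0.79 and passed (adjusted p = 0.0492 from limma).

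**Figure D4:**
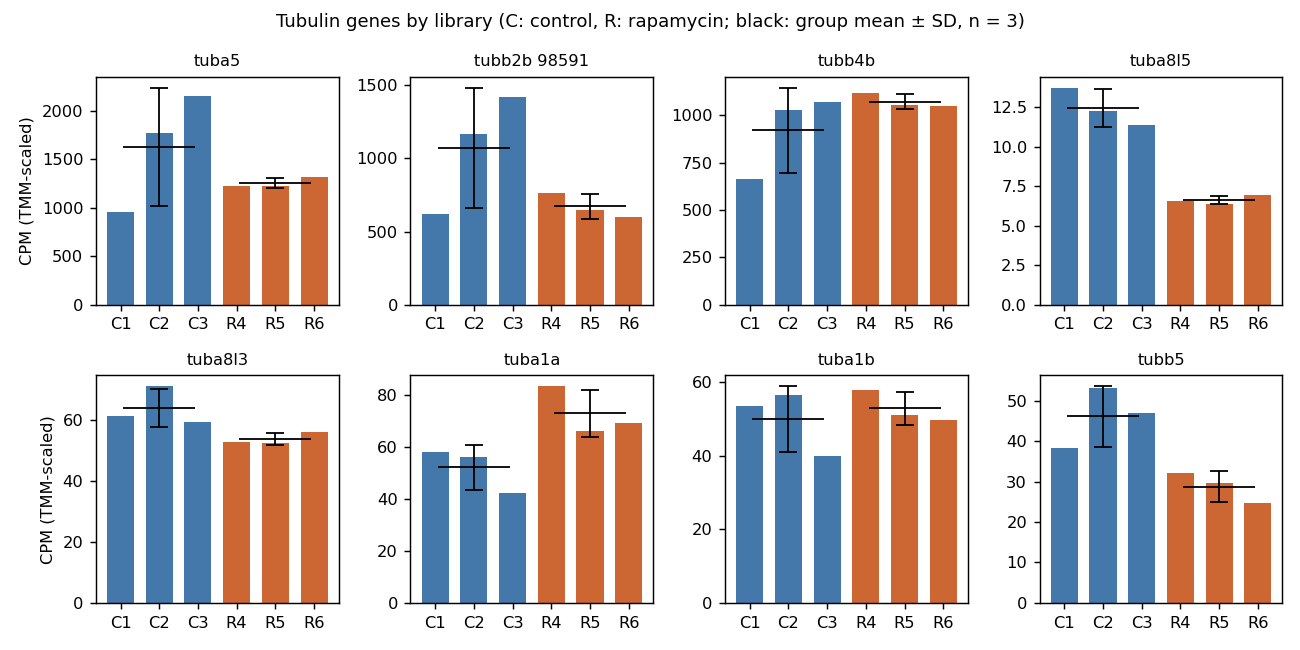
CPM of 8 tubulin genes in each control library (C1 to C3, blue) and each rapamycin library (R4 to R6, orange), with the group mean and SD in black, and the number after tubb2b for the end of its Ensembl ID. *tuba8l5* lies at 11.3 to 13.7 CPM in the control and 6.37 to 6.91 CPM in the rapamycin libraries, while *tuba5* at 960 CPM in control replicate 1 is below every other library.

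Of the 13 other tubulins 11 were tested, *tuba8l5* fell, against 3.27% of all tested genes, and 10 did not pass. Their median log2 fold change was -0.37 and 10 of the 11 lay below 0. The median was -0.62 without control replicate 1 and -0.16 without control replicate 2. With the trend on gene length removed it was -0.22 (that of *tubg1*), against -0.32 (that of *tuba4l*) by limma on the same genes without the removal. In 4 of the 11 every rapamycin library lay below every control library, against 15.9% of all tested genes.

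*tuba8l5*, an alpha-tubulin gene, had 13.7, 12.2 and 11.3 CPM in the control and 6.57, 6.37 and 6.91 CPM in the rapamycin libraries. The libraries agreed closely within each group and the groups lay far apart. The log2 fold change came to -0.91 (SE 0.21, edgeR adjusted p = 0.0416). Its neighbour on chromosome 9, *tuba8l3*, had 61.4, 71.1 and 59.3 CPM against 52.7, 52.7 and 56.3 CPM, with a log2 fold change -0.25 (SE 0.16, edgeR adjusted p = 0.382). Reads that both of these similar genes could have given are not told apart here, and the difference between the pair was not tested.

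*tuba5* had 960, 1772 and 2155 CPM in the control and 1230, 1224 and 1320 CPM in the rapamycin libraries. The controls spanned more than the difference between the groups (log2 fold change -0.37, SE 0.27, edgeR adjusted p = 0.448). Without control replicate 1 the log2 fold change was -0.65 and passed (edgeR adjusted p = 0.00451). With the trend on gene length removed it was -0.05 (limma adjusted p = 0.912), against -0.29 by limma on the same genes without the removal. *tuba8l2* had 135, 180 and 151 CPM against 102, 123 and 122 CPM, with no overlap (log2 fold change -0.43, SE 0.18, edgeR adjusted p = 0.186). *tuba8l4* had 236, 249 and 207 CPM against 224, 215 and 213 CPM (log2 fold change -0.09, SE 0.16). Its sign turned with the trend on gene length removed (0.20 by limma).

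The tubulin with the lowest fold change was *tuba2*, at 0.90, 2.01 and 0.54 CPM in the control and 0.11, 0.39 and 0.23 CPM in the rapamycin libraries. It rests on 6 to 106 counts per library, and its log2 fold change -2.24 (SE 0.77) did not pass (edgeR adjusted p = 0.121, DESeq2 0.0482). *tubb6* had 1.89, 2.93 and 2.54 CPM against 1.78, 2.08 and 1.52 CPM (log2 fold change -0.45, SE 0.35). *tubb4b*, a beta-tubulin of most tissues and of cilia, was the only one of the 11 above 0 in the edgeR fit of all libraries. It had 662, 1026 and 1071 CPM in the control and 1118, 1052 and 1046 CPM in the rapamycin libraries (log2 fold change 0.22, SE 0.21, edgeR adjusted p = 0.566).

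The make-up of the beta-tubulin counts was compared within each library, a measure chosen after these values were seen and given with no test. *tubb4b* made up 50.1% of them in control replicate 1 (95% Wilson interval 49.7 to 50.4%), 45.5% in replicate 2 (45.2 to 45.8%) and 42.1% in replicate 3 (41.8 to 42.4%). In rapamycin replicates 4 to 6 it made up 58.4% (58.1 to 58.7%), 60.7% (60.4 to 61.0%) and 62.5% (62.2 to 62.8%). The share of tubb2b (ENSDARG00000098591) was 46.9%, 52.0% and 56.0% in the control and 39.8%, 37.5% and 36.0% in the rapamycin libraries. Both shares were separated between the groups, control replicate 1 included. They are parts of 1 total and so not independent of each other. Among the alpha-tubulin counts, *tuba5* made up 62.1%, 72.8% and 80.0% in the control and 68.4%, 69.1% and 70.5% in the rapamycin libraries, and these overlapped. The intervals cover counting error only.

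Among genes that fold tubulin or bind and modify microtubules 1 passed the edgeR test. Of 21 tested genes of tubulin folding 1 rose, against 1.97% of all tested genes. It was *cct8*, a subunit of the chaperonin that folds tubulin and actin (log2 fold change 0.65, edgeR adjusted p = 0.0487). *pfdn6* (-0.80, adjusted p = 0.0506) of the prefoldin that hands chains to it, and *tbca* (-0.79, adjusted p = 0.0618), which binds beta-tubulin, did not pass in edgeR. The median of the 21 was -0.13, with 11 below 0 and 10 above. DESeq2 called 2 of them lower and 1 higher, against 7.78% and 5.06% of all tested genes. limma-voom called 1 lower and 1 higher, against 3.43% and 2.87%. Of 16 tested genes for proteins that bind or modify microtubules edgeR called 0, gave 1 as higher at an unadjusted p under 0.05, and DESeq2 and limma-voom called 0 (median -0.04). Of the 31 symbols listed for such proteins 19 were found.

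Markers of other cells moved between the same groups. Of 12 tested IDs of macrophage markers 2, *c1qa* and *c1qb*, fell, against 3.27% of all tested genes, with 9 below 0 and 3 above. These IDs came from 7 of 11 listed symbols, and several of them share the symbol MFAP4. *c1qa* had 102, 136 and 102 counts in the control and 0, 4 and 0 in the rapamycin libraries. *csf1ra* was higher in every rapamycin library (log2 fold change 0.76, edgeR adjusted p = 0.168). The macrophage markers summed to 205 to 458 CPM in the control and 177 to 248 CPM in the rapamycin libraries. Of 9 tested muscle markers 2, *actc1a* and *tpma*, fell, against 3.27% of all tested genes. The muscle markers had sums of 305 to 387 CPM and 210 to 280 CPM. Of 4 tested neutrophil markers *mmp13a* rose, with 2 above 0 and 2 below (*lyz* at -0.44 and *npsn* at -0.13). Of 10 epidermis markers *cyt1l* and *cdh1* rose, with 8 above 0 and 2 below (*agr1* at -0.16 and *anxa1c* at -0.19). Of all tested genes 1.97% rose. Of 11 fin mesenchyme markers edgeR called 0, with 2 lower and 1 higher at an unadjusted p under 0.05, against 13.3% and 10.1% of all tested genes. DESeq2 and limma-voom each called 1 of them higher, against 5.06% and 2.87%. The part of these cells in the kinesin and tubulin values was not tested.

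None of the 4 calls held in every fit that left out 1 library. *kif23* had an adjusted p of 0.120 without control replicate 2, 0.0521 without control replicate 3, and 0.138, 0.149 and 0.145 without rapamycin replicate 4, 5 or 6, from edgeR. *kif11* (0.137 and 0.0747 without control replicate 2 or 3, and 0.0749, 0.211 and 0.206 without rapamycin replicate 4, 5 or 6) and KIF26B (0.120 and 0.0549, and 0.125, 0.104 and 0.115) did the same in edgeR. *tuba8l5* kept its call without control replicate 3 (edgeR adjusted p = 0.0498) and lost it without control replicate 2 (0.126) and without each rapamycin replicate (0.172, 0.186 and 0.159). The log2 fold changes over the 6 fits were -1.03 to -0.81 for *kif23*, -1.05 to -0.72 for *kif11*, 0.92 to 1.30 for KIF26B and -0.97 to -0.84 for *tuba8l5*. Of all tested genes, without control replicate 2 or any 1 rapamycin replicate, 0.339% to 0.430% were lower and 0.238% to 0.319% higher, so that calls were lost across all genes in these fits.

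Without control replicate 1 the picture was wider. edgeR then called 10 of the 57 genes lower and 7 higher, while of all tested genes 16.0% were lower and 15.9% higher. The mitotic kinesins *kif11*, *kif22*, *kif23* and *kifc1* were among the 10, as were KIF1A, *tubb5*, *tuba5*, *tuba8l2*, *tuba8l5* and tubb2b (ENSDARG00000098591). The 7 were KIF26B, both IDs of KIF26A, *kif2a*, *tuba1a*, KIF13B (ENSDARG00000073859) and KIF5B (ENSDARG00000074131). The shares among these genes therefore lie near those of all genes in that fit for the higher calls (7 of 57) and for the lower calls (10 of 57).

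The length of the gene on the chromosome was known for 41 of the 57 tested genes, under the share of 80% needed, so that a check over all of them is void. It was known for 11 of 12 mitotic kinesins and 15 of 16 tubulins. With the trend of each library on gene length removed, *kif23* (log2 fold change -0.92, adjusted p = 0.0280) and *kif11* (-0.82, adjusted p = 0.0379) still fell by limma. The median of the 11 mitotic kinesins with a length was then -0.64. By limma on the same genes without the removal it was -0.52 (that of *kif2c*). *kif2a* passed (0.79, adjusted p = 0.0313 by limma), as it did by limma on the same genes without the removal (0.82, adjusted p = 0.0370). *tuba8l5* no longer passed (-0.72, adjusted p = 0.0690 by limma).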

How the data were processed

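SMART-seq libraries were made by the authors from total RNA with SMARTScribe reverse transcriptase, fragmentase and PCR, and sequenced in paired ends. The deposited table holds whole-number counts per Ensembl zebrafish gene for 6 libraries, with no normalization. Which aligner, counter and annotation were used is not given in the sources used here, although the submitters' processing notes name the mouse build mm10. Symbols came from a table of gene names (28988 of 32057 IDs) and lengths on the chromosome from RefSeq (GRCz12tu), matched by symbol. A name in capitals that stands for 1 ID and is listed in RefSeq is printed in lower case. No sequences or coordinates are given.

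Counts were analysed with edgeR 4.0.16 (filterByExpr, TMM, robust quasi-likelihood test, R 4.3.3) across 19778 genes, adjusted by Benjamini and Hochberg over all of them, and called at an adjusted p under 0.05. Standard errors are the absolute fold change (log2) over the square root of F. The procedure was also run on simulated counts, which held no trend on gene length and no control replicate that stood apart. Class medians by library used log2(CPM + 0.5). The alternatives, of which the limma fit on genes with a known length was chosen after seeing the data, were other scalings, DESeq2 1.42.0, limma-voom (limma 3.58.1), other filters, an unadjusted p together with a log2 change of 1 or more in size, the removal of the trend on gene length (loess, log2 CPM with a prior count of 2) and leaving out each library.

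The genes, classes and 15 lists were chosen with earlier results of these data known. Named in full are, per class, the 6 of lowest adjusted p, the 3 with the highest CPM and the highest and lowest fold change. The plan was to name the 4 of lowest adjusted p in each list. This was kept for the spindle partners and the proliferation markers and not for the other lists. Other members, and the genes named from those other lists, were chosen after their values were seen. No batch or date is given for the replicates.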

Additional observations from a re-analysis of the deposited data

How the results depend on the processing

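The direction of the class medians of the mitotic, transport and other kinesins and of the other tubulins was the same under every scaling, and no scaling moved the median of all genes by more than 0.1 on the log2 scale. With library size only, 1 gene was called lower (*kif23*, a mitotic kinesin), 0 higher and 0 of the other tubulins lower. Of all tested genes 3.68% were lower and 1.44% higher in that fit. The DESeq2 Wald test called 8 lower and 4 higher, among them 4 mitotic kinesins lower, 2 other tubulins lower, 1 transport kinesin lower and 1 higher, and 1 of the *tuba1*, *tubb2b* and *tubb5* genes lower. limma-voom called 3 higher (1 transport kinesin), against 2.87% of all tested genes. The fit with no filter called 2 higher (1 transport kinesin), against 1.67% of its genes. That with at least 10 counts in every library called 3 higher (1 transport kinesin) and 1 transport kinesin lower. Of all genes in that fit 2.80% were higher and 4.64% lower. By an unadjusted p with a log2 change of 1 or more in size, 0 mitotic kinesins and 1 transport kinesin were lower, against 5.57% of all tested genes. With the trend on gene length removed, 0 other tubulins were lower, 1 tubulin of the *tuba1*, *tubb2b* and *tubb5* genes was higher and their median was 0.46, over the 4 with a length (0.18 for these 4 by limma without the removal). *kif2a* gained a call in both of these limma fits. No class value is given there for the transport and other kinesins or for all members, since too few had a length.

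When single libraries were left out, 0 to 10 genes were called lower and 0 to 7 higher. These included 0 to 4 mitotic kinesins lower, 0 to 1 transport kinesins lower and 0 to 2 higher. They also included 0 to 2 of the *tuba1*, *tubb2b* and *tubb5* genes lower and 0 to 1 higher, and 0 to 3 other tubulins lower. The 10 and 7 came without control replicate 1, where 16.0% of all tested genes were lower and 15.9% higher. Without control replicate 3 these shares were 2.56% and 1.79%. Without control replicate 2 or any 1 rapamycin replicate they were 0.339% to 0.430% and 0.238% to 0.319%. The medians ranged from -0.71 to -0.33 (mitotic kinesins), 0.019 to 0.69 (transport kinesins), 0.36 to 0.71 (other kinesins), -0.06 to 0.18 (*tuba1*, *tubb2b* and *tubb5* genes) and -0.62 to -0.16 (other tubulins). The cause of these shifts was not tested. No paired analysis was possible because the groups share no replicate number. Genes under 1 CPM rest on few counts.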
